A study of Cunninghamia lanceolata with 18 samples.

Results

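The 100 genes described here were read at a higher level in all 9 libraries of the Chinese fir (Cunninghamia lanceolata) clone C1 than in any of the 9 libraries of clone C11. They were chosen by measured values. Counts were turned into CPM (the count of a gene scaled to a common total of all its library's counts), and genes with at least 1 count in all 18 libraries were ranked by a score, the lowest C1 value plus 1 CPM over the highest C11 value plus 1 CPM. After 2 genes that the study labels BAS1 had been set aside, 20750 of the 46723 genes in the table were ranked, and the 100 highest are the members. Among the ranked genes, 559 (2.69%) had every C1 library above every C11 library, and 402 (1.94%) had the reverse.

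The study set C1, a clone with longer internodes, against C11, a clone with shorter ones, to find transcripts that go with internode growth. Apical bud (AB), upper phloem next to the apical bud (UP) and lateral bud (LB) were taken from field-grown trees of each clone, with no treatment, when lateral buds appeared. Each tissue of each clone has 3 libraries, which the study calls biological replicates, and p-values below measure the spread between them. Each clone is a single genotype and the day of collection after bud sprouting differed with the clone, so clone and day cannot be told apart. The libraries held 24766529 to 32005160 counts, and no pair of replicates agreed within counting noise. The labelled tissues were not checked against markers, because the sources used here give no marker genes chosen apart from these libraries.

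Trees of a clone are propagated vegetatively from one parent and share its genome, whereas a pair of clones of an outcrossing conifer differ at many loci. A transcript can therefore differ between clones in every tissue, or only where and when a tissue uses it. The apical bud builds the main stem, and the phloem beneath it carries sugars and auxin. Lateral buds give rise to the branches that leave knots in timber. The deposited table pairs its identifiers with no gene names, and no member appears under a name in the study's text, so members are given by identifier and without a role.

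The leading member was Cula0001703, which had the highest mean of any member in C1 and a few CPM at most in C11. Its lowest, median and highest values were 691, 948 and 1241 CPM in C1, against 1.13, 2.78 and 3.79 CPM in C11. All 18 libraries therefore fell into a high and a low cluster with a wide gap between them. By tissue it averaged 1104 ± 160 CPM in C1 AB and 2.79 ± 1.44 CPM in C11 AB (SD, n = 3 each), 784 ± 99.7 CPM in C1 UP and 2.33 ± 0.651 CPM in C11 UP, and 999 ± 87.4 CPM in C1 LB and 2.99 ± 0.720 CPM in C11 LB. The ratio of the 2 clone means was 356, and its score of 145 was the only one above 20. Within C11 it had 33 to 107 counts a library.

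Cula0022717 came second, with 39.8, 50.2 and 58.4 CPM (lowest, median, highest) in C1 and 0.589, 0.816 and 1.72 CPM in C11. It was even within C1 in all tissues, and its highest C11 value was that of UP replicate 3. Cula0029537 had 102, 139 and 169 CPM in C1 and 1.49, 4.4 and 7.16 CPM in C11. These 3 were the only members with a score of at least 10, while 11 members reached 5 and 46 reached 2.

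The next members were less abundant in C1 and lower still in C11. Cula0006850 had 13.7, 19.0 and 26.3 CPM in C1 and 0.0708, 0.186 and 0.584 CPM in C11, a ratio of means of 70.3 that rests on 2 to 17 counts in a C11 library. Cula0024584 had 26.4, 32.9 and 48.7 CPM in C1 and 0.341, 0.821 and 2.19 CPM in C11. NewGene_8976 had 11.1, 20.6 and 27 CPM in C1 and 0.262, 0.546 and 0.896 CPM in C11. In all 3 genes every C11 library was at 2.19 CPM or lower. Cula0009077 had 23.9, 43.8 and 81.7 CPM in C1 and 0.791, 2.59 and 3.68 CPM in C11. NewGene_5151 had 15.7, 24.4 and 44.5 CPM in C1 and 0.410, 1.24 and 2.16 CPM in C11. NewGene_2345 had 12.9, 23.8 and 33.9 CPM in C1 and 0.142, 0.631 and 1.64 CPM in C11. These were less even within C1 than the leading genes, and each had its highest C1 value in UP. NewGene_3244, the last of the 10 highest scores, had 8.33, 9.12 and 16.9 CPM in C1 and 0.186, 0.568 and 0.784 CPM in C11, and 1 C1 library, UP replicate 3, stood above the other C1 libraries.

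**Figure D1:**
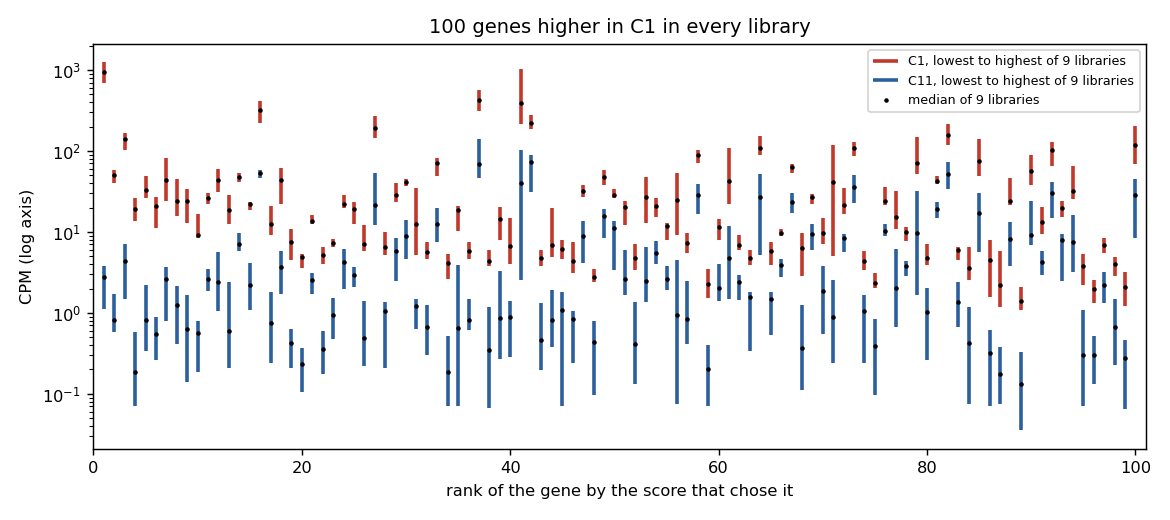
CPM (log axis) of the 100 members by rank, as bars from the lowest to the highest of the 9 libraries of C1 (red) and of C11 (blue) with the medians as dots. The bars of a gene never overlap, as the choice requires, and the gap narrows to a score of 1.52 at rank 100 while the C11 bars are mostly the longer ones.

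The score fell quickly and then levelled off, with a median of 1.87 and a lowest value of 1.52. The last members inside the limit were NewGene_10294 (score 1.53), NewGene_12765 (1.52) and Cula0026386 (1.52), and the first genes outside it were Cula0010873 (1.52), Cula0025072 (1.52) and Cula0031101 (1.51). Cula0026386 had 69.6 to 203 CPM in C1 and 8.51 to 45.3 CPM in C11, and Cula0010873, just outside, had 30.9 to 40.0 CPM in C1 and 8.77 to 20 CPM in C11. The limit thus divides genes with the same kind of separation and marks no break in it.

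Ratios of clone means ran from 2.26 to 356 with a median of 6.90. The ratio was at least 5 in 69 members, at least 10 in 29 and at least 20 in 11. Means in C1 ran from 1.49 CPM in Cula0013961 to 962 CPM in Cula0001703 with a median of 18.6 CPM, against 0.169 to 74.7 CPM with a median of 2.24 CPM in C11. Cula0013961 had 1.10, 1.41 and 2.06 CPM in C1 and 0.0354, 0.131 and 0.332 CPM in C11, so that its C11 libraries held 1 to 10 counts. Summed over the members, a C1 library held 4606 to 5704 CPM and a C11 library 605 to 893 CPM. Cula0001703 made up 12.1% to 25.4% of that sum in C1. Without it the sums were 3647 to 5012 CPM in C1 and 602 to 890 CPM in C11. The choice of members fixes that these sums do not overlap.

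Members at either end of the C11 level are described next, with limits set for the description. That level follows in part from the score. In 15 members no C11 library reached 1 CPM, with 10 to 25 counts in the highest C11 library of each gene. Their C1 means were 1.49 to 19.8 CPM (median 4.05), their C11 means were 0.169 to 0.535 CPM (median 0.311), and 7 of the 15 carry NewGene identifiers. Cula0036114, 1 of these, had 3.56, 4.88 and 5.39 CPM in C1 and 0.106, 0.232 and 0.373 CPM in C11. NewGene_10905 had 4.44, 7.45 and 11 CPM in C1 and 0.206, 0.425 and 0.639 CPM in C11. These are low transcripts in C1 too, and their C11 values carry wide counting error.

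At the other end, 19 members had a C11 mean above 10 CPM and were plainly expressed in both clones. Their C1 means were 25.9 to 447 CPM and their C11 means 10.5 to 74.7 CPM, and the ratio of means was 2.26 to 9.22 (median 4.46). Cula0035826, the member with the highest C11 mean, had 308, 431 and 573 CPM in C1 and 46.7, 68.3 and 140 CPM in C11. Cula0025995 had 185, 224 and 274 CPM in C1 and 31.0, 73.2 and 89.9 CPM in C11. Cula0004442 had the smallest ratio of means, with 39.0, 42.8 and 49.6 CPM in C1 and 14.8, 19.3 and 23.7 CPM in C11. These 3 genes, and those named in the next 2 paragraphs, were chosen after their values were seen. In 11 members the C1 mean was above 100 CPM, and none of those 11 carries a NewGene identifier.

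Some members had a limited spread within each clone. In 12 members the highest library was less than 2 times the lowest in both clones, with ratios of clone means of 2.26 to 9.56. The share of ranked genes under 2 in both clones was not computed. Cula0023854 had 224, 321 and 410 CPM in C1 and 46.2, 52.8 and 58.5 CPM in C11. Its C11 values, at 1302 to 1701 counts, were the most even of any member in C11. Cula0033030 had 22.1, 26.1 and 30.7 CPM in C1 and 1.88, 2.59 and 3.47 CPM in C11. Cula0037009 had 41.1, 47.3 and 52.9 CPM in C1 and 5.89, 7.05 and 9.81 CPM in C11. In these 3 genes the tissue means of a clone lay within a narrow band and the bands of the clones were far apart. Cula0012849 was the most even member within C1, at 37.4 to 44.7 CPM, with 4.64 to 14.1 CPM in C11.

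Others varied widely in C11 while staying below C1. Cula0005941 had 9.22, 25.1 and 54.0 CPM in C1 and 0.0746, 0.934 and 4.55 CPM in C11, where the highest library was 60.9 times the lowest. NewGene_11900 had 10.2, 18.6 and 21.0 CPM in C1 and 0.0710, 0.653 and 3.88 CPM in C11. Cula0015798 had 213, 387 and 1037 CPM in C1 and 2.57, 39.7 and 104 CPM in C11. The highest C11 library was a different one in each of these 3 genes, and UP replicate 3, the highest for NewGene_11900, was the lowest for Cula0015798. In C1 the widest spread was that of Cula0016812, with 118, 41.6 and 29.0 CPM in AB, 41.1, 13.4 and 5.00 CPM in UP and 107, 56.2 and 65.3 CPM in LB. Its C11 values were 0.568, 0.239 and 2.53 CPM in AB, 0.654, 0.692 and 1.53 CPM in UP and 0.884, 1.13 and 1.51 CPM in LB, low in all tissues. Within C1 every UP library was below every LB library, while UP and AB overlapped.

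**Figure D2:**
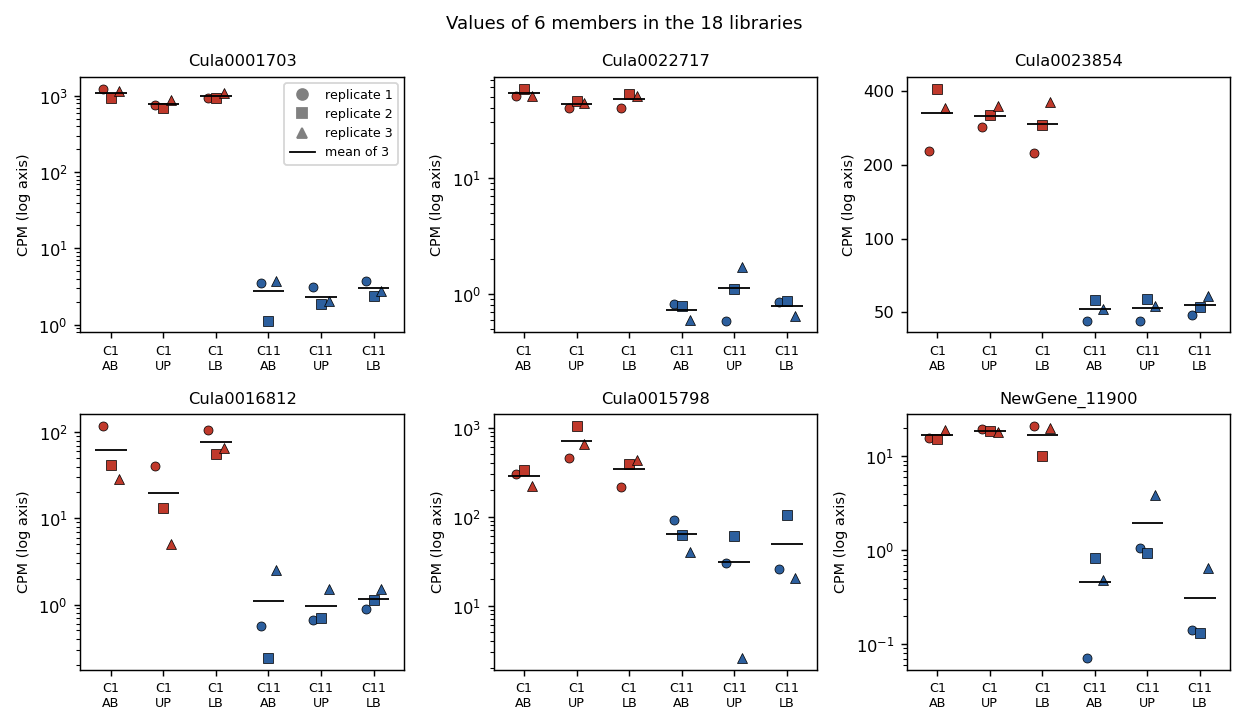
CPM (log axis) of 6 members in the 18 libraries, C1 in red and C11 in blue, by tissue and replicate, with lines at the mean of 3. Cula0001703 and Cula0022717 are steps, Cula0023854 is a step of 312.7 against 52.3 CPM with little spread in C11, and Cula0016812, Cula0015798 and NewGene_11900 vary within a clone by more than 10 times in 1 or both clones.

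Members varied less in C1 than in C11, as did the ranked genes in general. The highest library over the lowest had a median of 1.86 in C1 and 4.18 in C11 over the members, and of 2.14 in C1 and 3.76 in C11 over the 20750 ranked genes. This ratio was larger in C11 than in C1 for 93 of 100 members and for 85.2% of ranked genes. It was under 2 in C1 for 59 members and 45.4% of ranked genes, and under 2 in C11 for 14 members and 18.2% of ranked genes. The score itself favours an even C1 and an even C11, because it takes the lowest C1 and the highest C11 value. It also favours genes that are low in C11. The C11 ratio had a median of 5.63 in the 15 members with no C11 library at 1 CPM. In the 19 with a C11 mean above 10 CPM it was 2.79, and the part of counting error was not tested. These shares are therefore given as a description. The biological coefficient of variation from edgeR measures the spread between replicates beyond counting. Its median was 0.246 over the 100 members in C1 and 0.546 over the 94 members tested in C11. Over all genes tested in each clone it was 0.291 in C1 and 0.558 in C11.

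**Figure D3:**
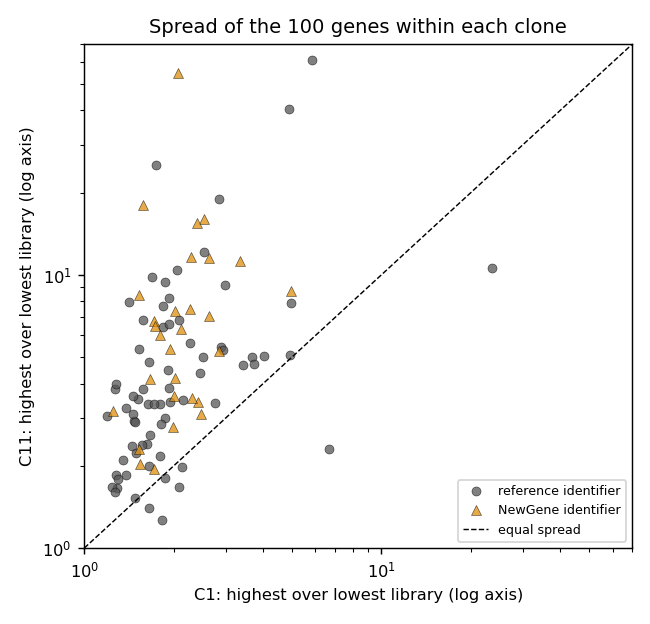
Highest library over lowest library within C11 (vertical, log axis) against the same ratio within C1 (horizontal, log axis) for the 100 members, with reference and NewGene identifiers marked and the dashed line at equality. All but 7 of the members lie above the line, and Cula0016812 stands apart on the right at 23.6 in C1.

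The value that sets a member's score came from some libraries more often than from others. UP replicate 3 held the highest C11 value for 30 members, against 25.3% of ranked genes, AB replicate 2 and LB replicate 2 for 17 each, against 10.9% and 12.6%, and LB replicate 1 for 1, against 2.95%. In C1 the lowest value came from LB replicate 2 for 22 members, against 10.3% of ranked genes, and from AB replicate 1 for 18, against 17.8%. By tissue the highest C11 value was in AB for 36, in UP for 41 and in LB for 23 members. With C11 UP replicate 3 left out and the rule applied again, 80 of the 100 genes chosen were members, the lowest number for any single library.

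**Figure D4:**
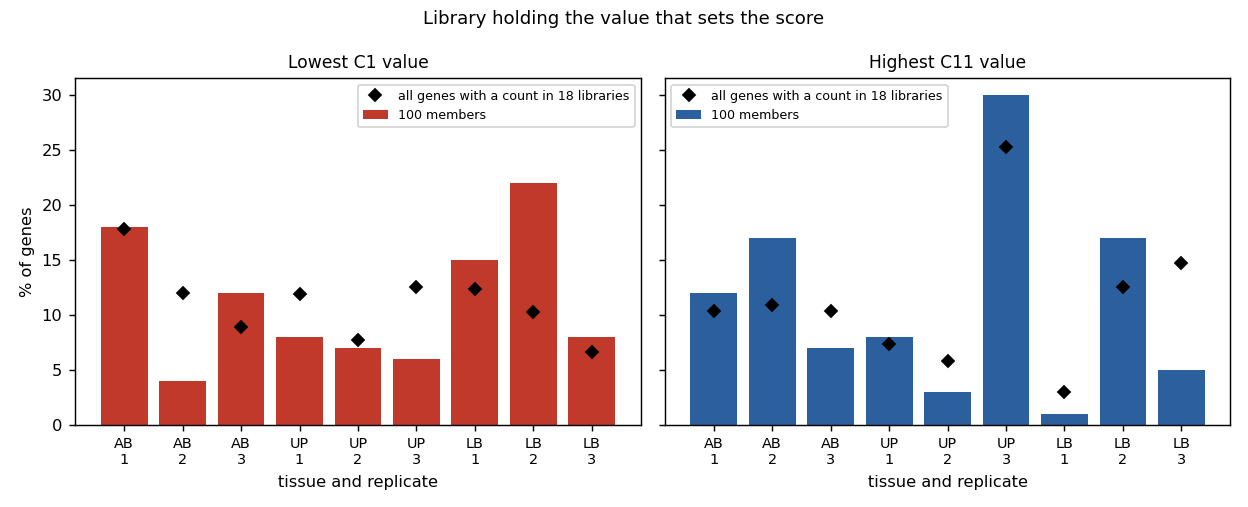
Share of the 100 members (bars) and of the 20750 ranked genes (diamonds), in %, whose lowest C1 value (left) or highest C11 value (right) is in each library, by tissue and replicate. The C11 bar for UP replicate 3 is the tallest at 30, with its diamond at 25.3, and C1 LB replicate 2 is at 22 with its diamond at 10.3.

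When a tissue was withheld from the rule, its libraries could be compared between the clones without having chosen the genes. Genes chosen on UP and LB, 79 of them members, had every C1 library above every C11 library in AB for 99 of 100, the exception being Cula0016943, against 12.8% of ranked genes. Genes chosen on AB and UP, 79 of them members, had the same separation in LB for 98 of 100, the exceptions being Cula0003001 and Cula0014363, against 17.4% of ranked genes. Genes chosen on AB and LB, 66 of them members, had it in UP for 92 of 100, against 19.0%. In each case the mean of the withheld tissue was higher in C1 for all 100 genes, and the median ratio of means after adding 1 CPM was 4.23 in AB, 4.35 in LB and 4.42 in UP. Same-numbered libraries of different tissues deviated together within C11 (correlations of 0.244 to 0.739) and, for UP with AB, within C1 (0.101 to 0.487). A withheld tissue is therefore not a set of unrelated samples, and no p-value is given. The percentages are over all ranked genes, which needed a count in every library, withheld libraries included. The chosen genes needed a count only in the libraries kept, so they came from a different pool. The percentages are also not limited to genes already separated in the other tissues, so nothing is read from the contrast with them.

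The fitted differences between the clones used the values that chose the members and are given only as sizes. The log2 fold change of C1 against C11, fitted by edgeR with normalization by the trimmed mean of M-values (TMM), had a median over the members of 2.67 in AB (range 1.01 to 8.56), 2.60 in UP (0.87 to 8.22) and 2.66 in LB (1.13 to 8.23). Over all genes tested the AB median was -0.02, the UP median -0.06 and the LB median -0.01. A gene was called where the fold change was 2 or more with a false discovery rate (FDR) under 0.05. In AB 73 members were called, where 1.78% of all genes tested were called as higher in C1, in UP 64 (1.72%), and in LB 68 (1.77%). The rule fixed this and nothing is read from it. In LB, where same-numbered libraries of the clones deviated together, 34 passed with the replicate number as a block. Leaving out 1 library gave 14 to 39 in AB, 0 to 88 in UP and 2 to 67 in LB, so the number passing changed with single libraries of both clones. All 100 members kept every C1 library above every C11 library when totals were rescaled by TMM or by the size factors of DESeq2.

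The rule favours genes that differ in every tissue, so the spread of the fold change over tissues is given as a description. The largest minus the smallest of the 3 log2 fold changes was under 0.5 for 46 members and under 1 for 76, with a median of 0.55. NewGene_6171 had the widest range, 2.50, with a log2 fold change of 5.57 for AB, 3.07 for UP and 4.43 for LB. In C1 it had 17.4, 18.5 and 28.5 CPM in AB and 15.2, 12.4 and 21.4 CPM in UP, while in C11 it had 0.319, 0.375 and 0.596 CPM in AB and 2.39, 1.25 and 1.53 CPM in UP. Its C11 values were thus higher in UP than in AB without overlap, and its C1 values overlapped. The difference between clones in this tissue difference had a log2 value of -2.46 (SE 0.78) and an adjusted p of 1.00 by the quasi-likelihood test of edgeR with Benjamini-Hochberg adjustment. It was the smallest p of any member for UP against AB, and the gene was chosen after its values were seen.

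Whether the clones differed in how members change between tissues was tested in a fit of all 18 libraries. By edgeR no member passed an FDR of 0.05 for UP against AB, where 0.00736% of all 27174 genes passed, for UP against LB (0.011%) or for LB against AB (0%). An unadjusted p under 0.05 was reached by 4, 4 and 3 members of 100, against 3.33%, 3.14% and 1.55% of all genes. DESeq2 also found 0 members for each, with 7, 4 and 5 at an unadjusted p under 0.05. With the replicates of each clone as blocks, edgeR found 0 for each, with 11, 9 and 6 at an unadjusted p under 0.05. The shares of all genes by DESeq2 and with that block were not computed. By edgeR without blocks, the median difference between clones in a tissue difference, in log2 without sign, was 0.38, 0.35 and 0.28 over the members. Over all genes it was 0.42, 0.41 and 0.37. The 100 include 6 members that were too low to be tested within C11 and entered this fit through C1, where the rule made them high. A p above the threshold does not show that the clones share a pattern.

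Differences between tissues within a clone did not enter the choice directly. The score takes the lowest C1 and the highest C11 value over all tissues, so it favours genes whose tissues differ little. The counts of members that differed between tissues in C1 are given beside the shares of all genes. For UP against LB, 3 members passed as higher in UP, where 2.27% of all 24454 genes tested passed, and 0 passed as lower (2.92%), while 24 of 100 had an unadjusted p under 0.05, against 24.5% of all genes. For UP against AB no member passed by edgeR, where 0.364% of genes passed as higher and 0.679% as lower, with 18 members at an unadjusted p under 0.05, against 19.1% of genes, and 3 by DESeq2. For LB against AB no member and no other gene passed by edgeR (0% in each direction), with 3 members at an unadjusted p under 0.05, against 6.78%, and 0 by DESeq2. By edgeR these shares were near or below those of all genes, and the shares of all genes by DESeq2 were not computed.

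The 3 members that were higher in UP than in LB of C1 were NewGene_2345, Cula0033745 and Cula0001982. NewGene_2345 had 23.8, 32.0 and 33.9 CPM in UP and 13.8, 15.5 and 12.9 CPM in LB of C1. Every UP library was above every LB library, and the C1 AB libraries, at 24.6, 20.2 and 26.7 CPM, overlapped with UP. The log2 fold change was 1.11 (SE 0.19, adjusted p = 0.0197 by edgeR). Cula0033745 had 13.0, 16.2 and 19.6 CPM in UP and 4.85, 6.92 and 4.91 CPM in LB of C1, with no overlap and a log2 fold change of 1.57 (SE 0.30, adjusted p = 0.0248 by edgeR). In C11 it had 1.24, 1.59 and 1.53 CPM in UP and 0.814, 0.465 and 0.378 CPM in LB, also without overlap, and a log2 value of 1.38 (SE 0.69) that did not pass, with an adjusted p of 0.923 by edgeR. Cula0001982 had 5.84, 5.49 and 4.38 CPM in UP and 2.10, 2.23 and 1.19 CPM in LB of C1, and a log2 fold change of 1.53 (SE 0.32, adjusted p = 0.0320 by edgeR). It was 1 of the 6 members too low in C11 to be tested there, at 0.262, 0.138 and 0.299 CPM in UP and 0.248, 0.133 and 0.378 CPM in LB. None of the 3 passed when any C1 replicate was left out, which leaves fewer libraries in each group, or when all 18 libraries were fitted together. Over all alternatives the log2 fold change was 0.945 to 1.23 for NewGene_2345, 1.33 to 1.81 for Cula0033745 and 1.41 to 1.70 for Cula0001982. Why the calls were lost was not tested. By DESeq2 7 members passed, and the share of all genes that it called was not computed.

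In C11, 94 members were tested and none passed by edgeR for UP against AB (0% of 25473 genes higher and 0% lower), UP against LB (0% and 0%) or LB against AB (0% and 0%). An unadjusted p under 0.05 was reached by 2, 1 and 1 members, against 7.40%, 5.63% and 0.875% of all genes. DESeq2 found 1, 0 and 0 members, and its shares of all genes were not computed. Cula0001659 had the smallest p of any member within C11 for UP against AB (adjusted p = 0.461 by edgeR), with 30.6, 19.3 and 17.3 CPM in UP and 8.55, 5.59 and 7.49 CPM in AB. In C1 it had 142, 113 and 101 CPM in UP and 65.7, 64.5 and 74.8 CPM in AB. In both clones every UP library was above every AB library, and the log2 values of 1.73 in C11 and 0.81 in C1 passed in neither. It too was chosen after its values were seen.

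**Figure D5:**
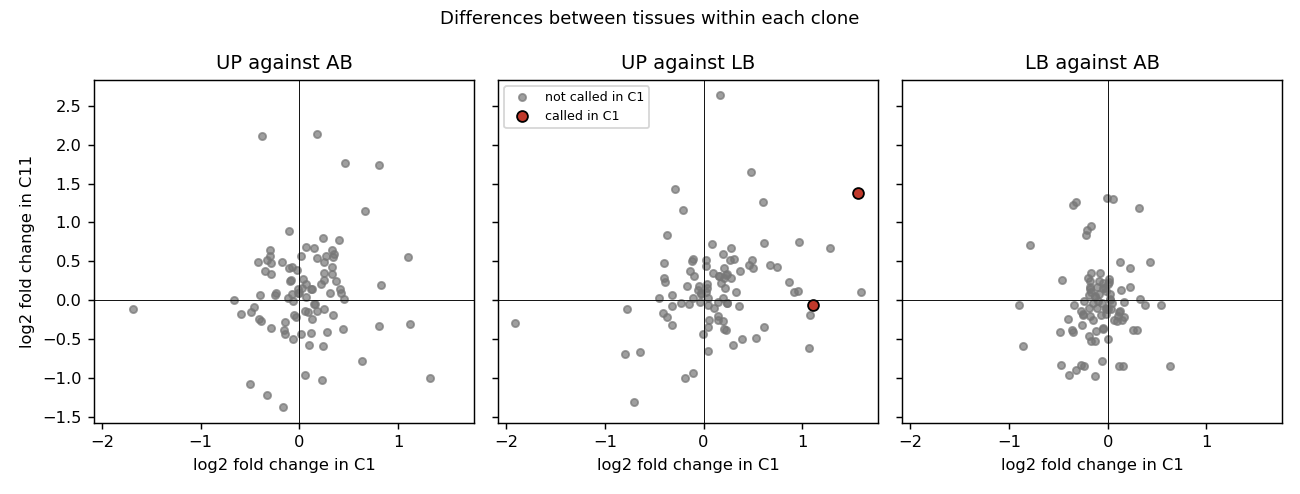
Log2 fold change between tissues in C11 (vertical) against the same in C1 (horizontal) for the 94 members tested in both clones, for UP against AB, UP against LB and LB against AB. Red points mark 2 of the 3 members called in C1 (Cula0001982 was not tested in C11), and the points form no line, with a Pearson r of 0.09, 0.25 and 0.04.

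The tissue differences of the members, set beside those of all genes, were mostly small in both clones. Across the 94 members the log2 tissue differences of C1 and C11 had a Pearson r of 0.09 for UP against AB, 0.25 for UP against LB and 0.04 for LB against AB, against 0.58, 0.60 and 0.10 across the 23058 genes tested in both clones. The score favours genes whose tissues differ little within a clone, and some members are near the floor in C11. The choice thus bears on these values and on the sizes below. Genes are also not independent replicates and share libraries, so all of these are descriptions. The sign was the same in 50, 55 and 50 of 94 members, against 67.9%, 66.7% and 54.1% of genes. The median size without sign was 0.25, 0.24 and 0.16 over members in C1, against 0.32, 0.36 and 0.22 over all genes, and 0.35, 0.32 and 0.25 over members in C11, against 0.44, 0.40 and 0.26. By highest tissue mean, UP led in C1 for 50 members (37.7% of ranked genes), AB for 27 (26.1%) and LB for 23 (36.2%), and in C11 UP led for 46 (37.4%), AB for 31 (37.3%) and LB for 23 (25.3%). The same tissue led in both clones for 41 members and 45.0% of ranked genes.

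Identifiers that the table names NewGene, as opposed to those of the reference annotation, made up 29 of the 100 members and 12.0% of ranked genes. They made up 16.8% of the 559 genes with every C1 library above every C11 library. They were also 25 of the 100 genes that the mirrored rule, C11 over C1, picked. The NewGene members had a median C1 mean of 7.43 CPM and a median C11 mean of 0.730 CPM, against 23.2 CPM in C1 and 2.77 CPM in C11 for the 71 members of the reference annotation, and 8 of them were among the first 20 ranks. They were thus lower in both clones, with a median ratio of clone means of 8.67 against 6.28.

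No member was in any list that the study assembled for hormones or fatty acids. Of 131 auxin, cytokinin, strigolactone and brassinosteroid genes in its heat maps, each counted once, 100 were ranked and none was a member. Members are 0.482% of ranked genes and the rule set aside 2 genes of these lists, so nothing is read from that 0. The study chose those genes on these libraries. With the 2 BAS1 genes set aside, 2 of the 100 ranked hormone genes had every C1 library above every C11 library, near the 2.69% of all ranked genes. AHP1 (Cula0019027), whose relatives pass on the cytokinin signal by phosphotransfer, ranked 201, with 5.11, 6.5 and 8.37 CPM in C1 and 0.896, 2.65 and 3.98 CPM in C11. CYP734A6 (Cula0031585), of a cytochrome P450 family that inactivates brassinosteroids in rice, ranked 483, with 6, 9.21 and 14.7 CPM in C1 and 0.485, 2.34 and 5.86 CPM in C11. Both stood above C11 in all libraries by narrower margins than the members. Of the 981 genes in the study's pink co-expression module, 750 were ranked and none had every C1 library above every C11 library, against 2.69% of ranked genes, and that module too was built on these libraries. That module includes 15 fatty acid elongation genes, which build very-long-chain fatty acids, and 32 genes of cutin, suberine and wax synthesis, of which 12 and 14 were ranked.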

How the data were processed

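Poly(A) RNA of AB, UP and LB of 2 clones was sequenced. The authors aligned reads by Hisat2 to a published genome of the species and deposited raw counts for each gene, with no normalization. The version of that genome, the counter and its strand setting are not named in the sources used here. Reads of near-identical copies may have been split. Libraries held 24766529 to 32005160 counts (median 28951996), and groups follow the labels. The members, the rule and the gene lists were chosen with earlier results of these data known. Lists were read from the study's heat maps by eye and from its module tables.

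CPM used column totals. Tests used R 4.3.3 with edgeR 4.0.16 (filterByExpr, TMM and the quasi-likelihood test, with Benjamini-Hochberg adjustment over all genes tested), on the 9 libraries of a clone, the 6 of a tissue, or all 18 for differences of the clone effect. Standard errors are the log2 fold change over the root of the quasi-F. TMM factors over all genes were 0.988 to 1.09 in C1 and 0.842 to 1.05 in C11, so column totals place C1 slightly higher. Named genes are the 10 highest scores, the highest and lowest C1 mean, the members called between tissues, and 3 on each side of the limit, and others are stated to be chosen after their values were seen. Alternatives were DESeq2 1.42.0, its size factors, other filters, pseudocounts of 0.1 and 5 CPM, no minimum count and a minimum of 10, 1 fit of all libraries, the replicate number as a block, and each library, replicate or tissue left out. The fits were tested on simulated data first. Figures used Python 3.11.15 and matplotlib 3.10.9.

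Deviations of each library from its group mean were correlated between same-numbered libraries to see if the numbers pair them, with a minimum of 0.1 in every pair. This held for C1 UP with AB (0.101 to 0.487), for the C11 tissues (0.244 to 0.739) and for C1 with C11 in LB (0.257 to 0.397). The sources do not say what the number stands for.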

Additional observations from a re-analysis of the deposited data

Results flagged for a closer look

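The gap from the highest or lowest of the 9 libraries of a clone to the next was set against the whole range for the 16 named members. Chance passes about 1 in 20 groups of 9. Of the 32 groups looked at, about as many passed as that rate gives, so nothing is read from them. Each group holds all 3 tissues. In Cula0022717, C11 UP replicate 3 had 1.72 CPM and the next highest C11 library 1.11 CPM, a gap of 0.541 of the range. In NewGene_3244, C1 UP replicate 3 had 16.9 CPM and the next highest C1 library 10.3 CPM, a gap of 0.769 of the range.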

How the results depend on the processing

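Of 144 alternatives for the counts, 114 stayed within 1.5 times. For the alternative fits, shares of all genes were not computed. Of the 100 genes chosen, 96 were members with TMM totals, 95 with DESeq2 size factors, 89 with 0.1 and 82 with 5 CPM added, and 80 to 100 with 1 library left out. Only 21 were members with no minimum count, where 79 of the genes chosen had 0 counts in a C11 library, 62 with a minimum of 10 counts, and 66 with the rule applied without UP. Members called for UP against LB in C1 were 7 by DESeq2, 0 in the fit of all 18 libraries, and 0 to 0 with a replicate left out. For UP against AB, DESeq2 called 3 in C1 and 1 in C11, and the 18-library fit called 1 in C11. The 3 members called for UP against LB kept a positive log2 fold change in all 27 single-gene alternatives, with 15 past the threshold, and none was reversed. Differences of the clone effect gave 0 members in all 33 alternatives. For C1 against C11, which the rule used, DESeq2 called 100 members in AB, 98 in UP and 100 in LB, against 73, 64 and 68 by edgeR. Leaving out 1 library gave 14 to 39 in AB, 0 to 88 in UP and 2 to 67 in LB, and the cause was not tested.

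With the replicate number as a block, C1 against C11 called 0 members in AB, 0 in UP and, of LB, 34. Same-numbered libraries of the clones correlated at -0.191 to 0.126 in AB, -0.148 to 0.0949 in UP and 0.257 to 0.397 in LB. Only LB thus passed the minimum used for pairing. Whether the numbers pair samples of the clones was not tested, because their meaning is not stated. The block left the other counts of members called within 1.5 times, with 4 members called for UP against LB in C1.

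Depth limits the members that are low in C11. In 11 members no C11 library held more than 20 counts, and in 35 none held more than 50, so their ratios carry wide counting error.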
